A study of Mus musculus with 2 samples.

Results

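Smooth muscle contractile genes were compared between a Bcat_Only and a Met_Bcat prostate tumour. The 10 genes (Acta2, Actg2, Myh11, Tagln, Cnn1, Des, Smtn, Mylk, Lmod1 and Synpo2) were taken by name from a list of contractile genes. No cut on their values was used, though the choice was made with earlier results of these data known. Each gene matched exactly 1 of the 27376 rows of the deposited count table. All 10 passed the minimum expression used below. The 10 genes were lower in the Met_Bcat library without exception, by 2.25-fold for Mylk to 57.0-fold for Cnn1.

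Smooth muscle surrounds the glands and ducts of the prostate and forms the wall of its arteries. Its cells contract when myosin, built on a smooth muscle heavy chain, pulls on filaments of smooth muscle actin, and the pull begins when a calcium-activated kinase phosphorylates the myosin light chains. Most genes of this apparatus are controlled by serum response factor (SRF), which binds a sequence called the CArG box and works with myocardin or the myocardin-related factors. Some of the proteins are also made by pericytes, activated fibroblasts, myoepithelium or striated muscle, so each gene differs in how narrowly it marks smooth muscle.

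The samples were fresh prostate tumours of mice aged 16 months, 1 library from each of 2 genotypes. The heading of the Bcat_Only column gives an exon allele of beta-catenin together with PB Cre, where PB is the usual short form of the probasin promoter of prostate epithelium, and Met_Bcat joins MET to beta-catenin in its name, with no allele described. The whole tissue was used, with no sort of cells, so stroma, vessels and epithelium share each library, and neither pooling nor background strain is described. In bulk tissue, fewer cells of a type and less RNA per cell cannot be told apart. Bcat_Only held 19301062 reads assigned to genes and Met_Bcat 20117724. Having 1 library each, the genotypes could not be tested against each other: each difference is one between these 2 libraries, has no replicate behind it, and its interval covers counting error alone. The luminal genes Krt8, with 5053 and 7853 reads, and Hoxb13, with 496 and 3229 were present in both libraries.

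Levels are given as reads and as CPM, the usual count per library size, after TMM scaling (a trimmed-mean scaling of library size). Where genes are compared with each other, RPKM is used, which is CPM per kilobase of exon. A ratio is Met_Bcat over Bcat_Only, with a 95% exact interval that is conditional on the summed reads. Genes averaging at least 1 CPM were tested, and a call of lower or higher required the interval's near end, the one closest to equality, to reach 2-fold.

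Promoter windows, from 250 bases before to 50 after the RefSeq start site on GRCm38.p6, were found for 7 of the 10 genes: Acta2, Mylk, Cnn1, Smtn, Lmod1, Synpo2 and Des. They are read 5′ to 3′ along the gene, and 3 are shown because they carry the motifs searched for while their genes differed to unlike degrees between the libraries. Capitals mark either a CArG-like stretch, meaning a CArG box with at most 1 G or C in its core of A and T, or CATTCC on either strand, the core letters bound by TEAD factors. Acta2 lies at chr19:34255324-34255623 on the minus strand, Lmod1 at chr1:135324563-135324862 on the plus strand and Mylk at chr16:34784700-34784999 on the plus strand.
Acta2: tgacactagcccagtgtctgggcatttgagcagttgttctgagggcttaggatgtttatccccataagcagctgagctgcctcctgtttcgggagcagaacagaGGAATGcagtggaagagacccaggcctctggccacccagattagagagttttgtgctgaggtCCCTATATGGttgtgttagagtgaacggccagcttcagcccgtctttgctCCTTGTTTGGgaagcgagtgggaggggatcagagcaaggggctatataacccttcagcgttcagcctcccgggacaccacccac
Lmod1: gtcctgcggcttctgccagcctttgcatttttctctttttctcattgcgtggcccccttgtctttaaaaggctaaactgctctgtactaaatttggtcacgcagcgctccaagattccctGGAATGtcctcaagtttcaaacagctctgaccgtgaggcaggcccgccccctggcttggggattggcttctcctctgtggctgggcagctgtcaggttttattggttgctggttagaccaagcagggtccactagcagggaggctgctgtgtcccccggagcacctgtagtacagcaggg
Mylk: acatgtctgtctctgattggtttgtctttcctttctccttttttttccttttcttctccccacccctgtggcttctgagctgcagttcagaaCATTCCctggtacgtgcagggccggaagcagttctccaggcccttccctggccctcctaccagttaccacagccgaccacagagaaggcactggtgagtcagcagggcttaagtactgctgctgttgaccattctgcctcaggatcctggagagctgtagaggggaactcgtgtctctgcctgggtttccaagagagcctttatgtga

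Acta2 held a pair of CArG-like stretches, CCCTATATGG starting at base −84 and CCTTGTTTGG at base −34 from the start site, and no other of the 7 windows held one. Among all 32851 windows of the same length, 9.98% held such a stretch. A strict CArG box, whose core is A or T throughout, was in 1.63% of all windows and in 0 of the 7. CATTCC was in 4 of the 7 windows, those of Acta2, Mylk, Smtn and Lmod1, and in 14.7% of all windows. The E-box letters CANNTG were in 6 of the 7 (all but Mylk) and in 72.3% of all windows, and the TATAAA letters in that of Synpo2 alone and in 13.6% of all windows. The 4 windows with CATTCC belong to genes whose differences ran from 2.25-fold (Mylk) to 31.3-fold (Lmod1). These are matches of letters in short windows, which describe no binding, and smooth muscle enhancers further from the start were not analysed here. Which of the products of the Mylk locus, named below, begins at its window was not analysed here either.

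All 10 genes were called lower in Met_Bcat and 0 higher, where 14.6% of the 14354 genes tested were called lower and 4.42% higher. Their median log2 ratio of CPM plus 0.5 was −3.38, a 10.4-fold difference, beside 0.030 over all genes tested. Their summed reads were 13753 in Bcat_Only and 2598 in Met_Bcat, 6.06-fold lower after scaling (5.81 to 6.32). The set held 0.0713% of the reads of Bcat_Only (0.0701% to 0.0725%, exact binomial interval) and 0.0129% of those of Met_Bcat (0.0124% to 0.0134%). A near end of 4-fold or more was reached by 6 of the 10, against 7.57% of all genes tested. One of 16-fold or more was reached by 4 of the 10, Cnn1, Tagln, Actg2 and Myh11, against 2.47% of all genes tested.

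**Figure D1:**
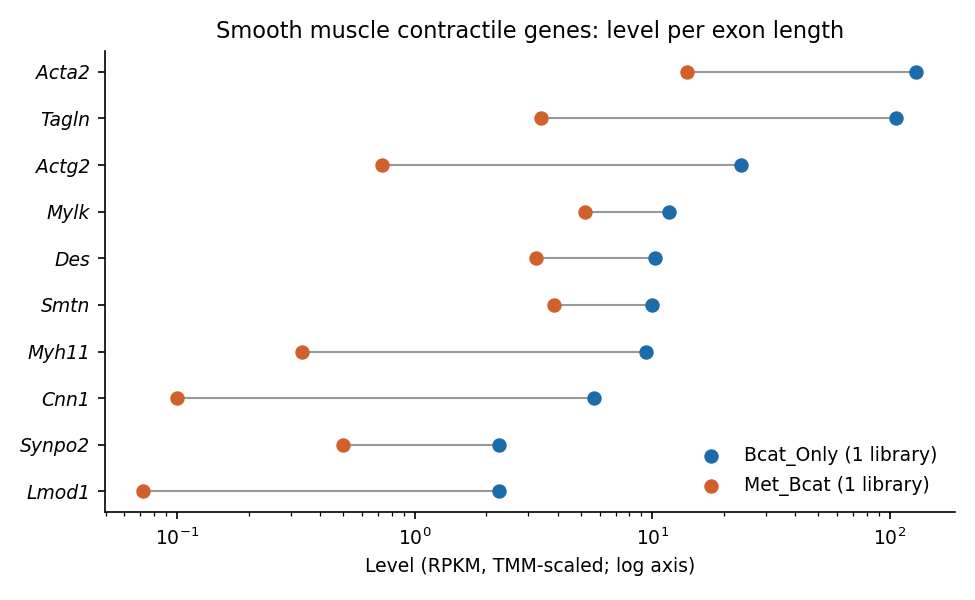
Level of each contractile gene in RPKM (log axis) in the Bcat_Only library (blue) and the Met_Bcat library (orange), 1 library each, joined by a line. Every orange point lies to the left of its blue point, and the lines of Cnn1, Lmod1, Actg2, Tagln and Myh11 are the longest.

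Of the thin filament actins, Acta2 encodes alpha smooth muscle actin (ENSMUSG00000035783, mm9 chromosome 19, 34315580 to 34329826, minus strand). Acta2 had 4227 reads (229 CPM) in Bcat_Only and 524 reads (24.9 CPM) in Met_Bcat. It was 9.23-fold lower (8.43 to 10.1), and at 129 and 14.0 RPKM it had the highest level of the 10 genes in both libraries. Actg2, the gamma smooth muscle actin typical of visceral muscle (ENSMUSG00000059430, chromosome 6, 83462899 to 83486259, minus strand), had 682 reads (37.0 CPM) in Bcat_Only and 24 reads (1.14 CPM) in Met_Bcat. It was 32.5-fold lower (21.7 to 51.1).

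The actins did not differ equally. Per exon length Acta2 stood at 5.44 times the level of Actg2 in Bcat_Only and at 19.1 times in Met_Bcat, a 3.52-fold change of their ratio (2.32 to 5.59). Acta2 is the actin that pericytes, activated fibroblasts and myoepithelium also make, while Actg2 is more restricted to visceral muscle. Exact sharing of sequence with other genes was small for both. Windows of 51 bases, the read length, were taken from their annotated transcripts. Of these, 0.280% in Acta2 and 0% in Actg2 also occurred, without mismatch, in a transcript of another gene. Matches with mismatches were not analysed here, so sharing between closely similar stretches is not known.

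Of the thick filament genes, Myh11 encodes the smooth muscle myosin heavy chain, the motor itself and a strict marker of differentiated smooth muscle (ENSMUSG00000018830, chromosome 16, 14194620 to 14291501, minus strand). It had 1146 reads (62.2 CPM) in Bcat_Only and 47 reads (2.23 CPM) in Met_Bcat, 27.9-fold lower (20.8 to 38.2). Mylk encodes the myosin light chain kinase that starts contraction, and its locus also makes a long non-muscle kinase and the small protein telokin (ENSMUSG00000022836, chromosome 16, 34745296 to 35002520, plus strand). Mylk had 2293 reads (124 CPM) in Bcat_Only and 1167 reads (55.4 CPM) in Met_Bcat. It was 2.25-fold lower (2.09 to 2.41), the smallest difference of the 10.

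Motor and kinase thus parted between the libraries. Mylk stood at 1.25 times the RPKM of Myh11 in Bcat_Only and at 15.5 times in Met_Bcat, a 12.4-fold change (9.18 to 17.1). Counts per gene do not separate the products of Mylk, so the share of its smooth muscle form is not known in either library. Under scaling by total counts, the near end for Mylk was 1.91-fold and it was no longer called, which left 9 of 10 genes called.

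The actin-binding regulators split as well. Tagln encodes transgelin, an early and abundant smooth muscle protein (ENSMUSG00000032085, chromosome 9, 45737711 to 45744141, minus strand). It had 3088 reads (168 CPM) in Bcat_Only and 114 reads (5.41 CPM) in Met_Bcat, 31.0-fold lower (25.7 to 37.7). In the newer annotation 47.3% of its 51-base windows also lie in transcripts of Gm48529 or Pcsk7, with Gm48529 sharing the most. The search took both strands together. Gm48529 is not a row of the count table, and with the strand setting unknown its reads cannot be told apart from those of Tagln. Pcsk7 is a row, with 801 reads in Bcat_Only and 910 in Met_Bcat. Cnn1 encodes calponin 1, which restrains actin-activated myosin (ENSMUSG00000001349, chromosome 9, 21903725 to 21914074, plus strand). Cnn1 had 249 reads (13.5 CPM) in Bcat_Only and 5 reads (0.237 CPM) in Met_Bcat. It was 57.0-fold lower (24.1 to 177), the lowest ratio of the set, not separated from that of Actg2, and with 5 reads it had the widest interval.

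Smtn encodes smoothelin, an actin-binding protein of contractile smooth muscle (ENSMUSG00000020439, chromosome 11, 3417526 to 3440615, minus strand). It had 801 reads (43.5 CPM) in Bcat_Only and 356 reads (16.9 CPM) in Met_Bcat, 2.57-fold lower (2.27 to 2.92). Smtn stood at 1.74 times the RPKM of Cnn1 in Bcat_Only and at 38.5 times in Met_Bcat, a 22.1-fold change (9.23 to 69.3). Transgelin and calponin 1 kept closer step, since the ratio of Tagln to Cnn1 changed 1.84-fold with an interval that includes no change (0.755 to 5.82).

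The remaining genes set filament length and anchor the filaments. Lmod1 encodes leiomodin 1, which starts new actin filaments in smooth muscle (ENSMUSG00000048096, chromosome 1, 137221384 to 137264642, plus strand). It had 164 reads (8.90 CPM) in Bcat_Only and 6 reads (0.285 CPM) in Met_Bcat, 31.3-fold lower (14.1 to 86.4). Synpo2 encodes synaptopodin 2, also called myopodin, an actin-bundling protein of muscle (ENSMUSG00000050315, chromosome 3, 122779437 to 122939067, minus strand). Synpo2 had 391 reads (21.2 CPM) in Bcat_Only and 99 reads (4.70 CPM) in Met_Bcat, 4.52-fold lower (3.62 to 5.69).

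Des encodes desmin, the intermediate filament that links dense bodies in smooth muscle and Z-discs in striated muscle (ENSMUSG00000026208, chromosome 1, 75356904 to 75365154, plus strand). Des had 712 reads (38.6 CPM) in Bcat_Only and 256 reads (12.1 CPM) in Met_Bcat, 3.18-fold lower (2.75 to 3.68). Lmod1 and Synpo2 had nearly the same RPKM in Bcat_Only, 2.25 and 2.26, and parted in Met_Bcat, at 0.0721 and 0.4996. That is a 6.92-fold change of their ratio (2.98 to 19.7).

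**Figure D2:**
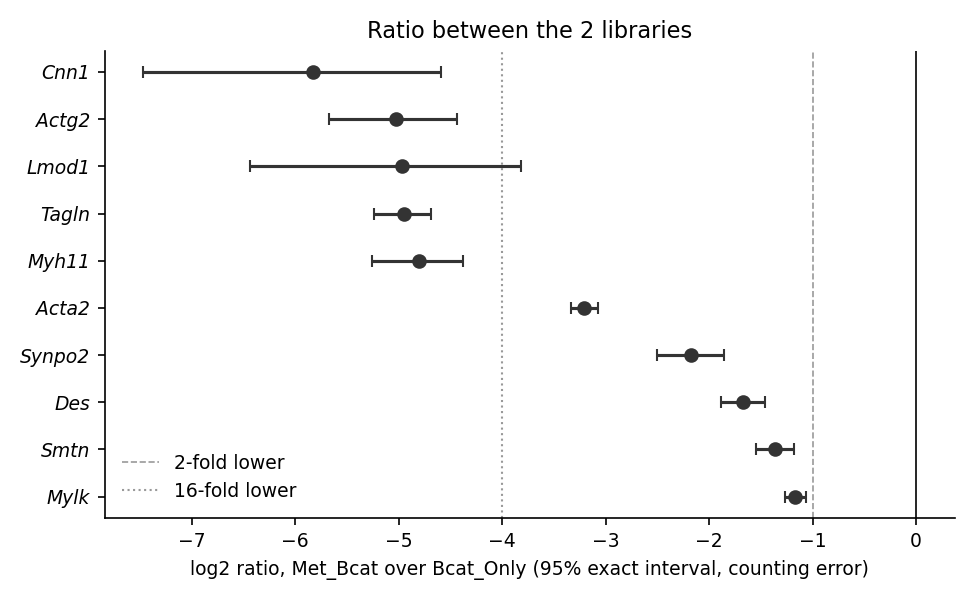
The log2 ratio of Met_Bcat to Bcat_Only for each gene, with its 95% exact interval for counting error, and lines at 2-fold and 16-fold lower. Cnn1, Actg2, Lmod1, Tagln and Myh11 sit together at the left, Acta2 stands between, and Synpo2, Des, Smtn and Mylk lie between 4.52-fold and 2.25-fold.

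Ordered by ratio, the genes ran Cnn1, Actg2, Lmod1, Tagln, Myh11, Acta2, Synpo2, Des, Smtn and Mylk. Neighbours from Cnn1 to Myh11 did not differ beyond counting error, with the ratio of Actg2 to that of Cnn1 at 1.75 (0.646 to 5.94) and that of Myh11 to that of Tagln at 1.11 (0.768 to 1.59). The step from Myh11 to Acta2 was 3.02 (2.22 to 4.20), from Acta2 to Synpo2 2.04 (1.59 to 2.60), from Synpo2 to Des 1.42 (1.08 to 1.87) and from Des to Smtn 1.24 (1.02 to 1.502). Smtn and Mylk again did not separate, at 1.15 (0.990 to 1.33). Ranked among all genes tested from the lowest ratio upward, Cnn1 was at 2.09%, Myh11 at 2.91%, Acta2 at 5.197%, Synpo2 at 8.75%, Des at 11.8%, Smtn at 14.1% and Mylk at 16.1%. The order did not follow the level, since the 5 genes at the low end covered RPKM from 2.25 (Lmod1) to 106 (Tagln) in Bcat_Only.

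The makeup of the set changed with these unequal ratios. In Bcat_Only, Acta2 and Tagln held 41.6% and 34.1% of the summed RPKM of the 10 genes. In Met_Bcat, Acta2 held 44.4%, Tagln 10.9%, Mylk 16.6%, Smtn 12.3% and Des 10.3%. Mylk had been at 3.78% in Bcat_Only, Smtn at 3.20% and Des at 3.32%. By reads alone, Mylk was 16.7% of the set in Bcat_Only and 44.9% in Met_Bcat, where it was the gene with most reads.

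**Figure D3:**
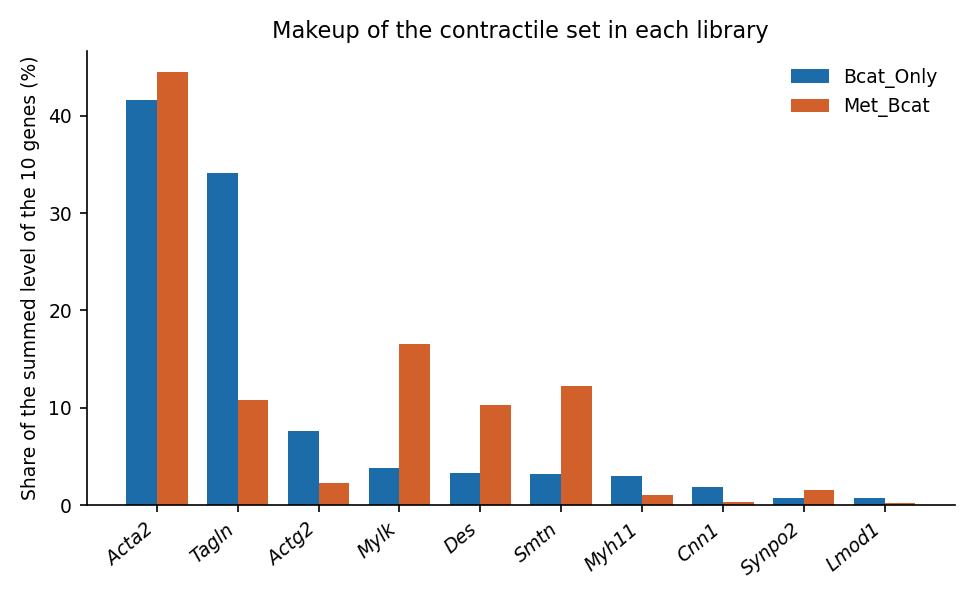
Share of the summed RPKM of the 10 genes held by each gene, in percent, in Bcat_Only (blue bars) and Met_Bcat (orange bars). Acta2 holds a similar share in both (41.6% and 44.4%), Tagln goes from 34.1% to 10.9%, and Mylk, Smtn and Des take larger shares in Met_Bcat.

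Most non-muscle relatives of these genes were far closer to equal. Actb, the cytoplasmic beta actin, had 52682 and 44730 reads in Bcat_Only and Met_Bcat, 1.35-fold lower (1.33 to 1.36), and the non-muscle myosin heavy chains Myh9 and Myh10 were 1.25-fold (1.23 to 1.27) and 1.56-fold lower (1.44 to 1.70). Tagln2, the transgelin of many cell types, had 6733 and 5153 reads and was 1.49-fold lower (1.44 to 1.55), beside 31.0-fold for Tagln. The calponin relative Cnn2 had 2935 and 1419 reads and was called lower at 2.37-fold (2.22 to 2.52). Cnn3 had 3124 and 3980 reads, a log2 ratio of 0.16 (0.09 to 0.22) whose sign turned to −0.19 when libraries were scaled to luminal epithelial markers.

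The relatives of Smtn, Synpo2 and Des stood nearer to them. Synpo had 2564 and 1551 reads, 1.89-fold lower (1.77 to 2.02), and Smtnl2, a smoothelin-like gene, had 57 and 21 reads, 3.11-fold lower (1.85 to 5.39) and not called. Vim, the intermediate filament of mesenchymal cells, had 12803 and 3331 reads and was 4.40-fold lower (4.23 to 4.57), more than Des. Actg1, cytoplasmic gamma actin, had 202 and 267 reads, far below Actb, and 45.5% of its 51-base windows also occurred in transcripts of other genes, so its count is uncertain. Over the 12 relatives tested, 2 were called lower and 1 higher, counts near the shares of 14.6% and 4.42% over all genes tested, with a median log2 ratio of −0.50. The higher one was Tagln3, with 18 and 84 reads.

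**Figure D4:**
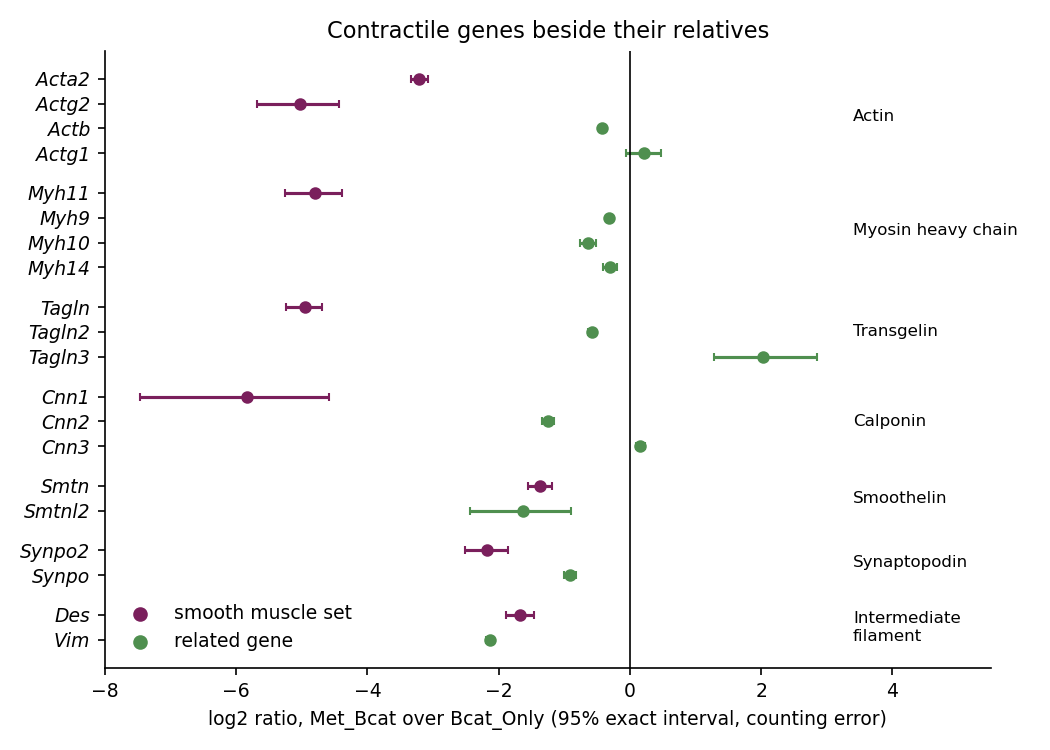
The log2 ratio of Met_Bcat to Bcat_Only, with its 95% exact interval for counting error, for contractile genes (purple) and related genes (green), grouped by family. Acta2, Actg2, Myh11, Tagln and Cnn1 lie far to the left of their relatives, whereas Smtn, Synpo2 and Des lie within a few fold of theirs.

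The wider contractile pathway was read from lists of genes named by role, drawn up with earlier results of these data known. Over its lists, 41 of 126 tested genes were called lower and 9 higher, where the shares over all genes tested were 14.6% and 4.42%. Among 12 further motor and thin filament genes, 5 were lower and 0 higher, with a median log2 ratio of −0.66. Tpm2, a muscle tropomyosin, had 1188 and 248 reads and was 5.48-fold lower (4.78 to 6.31). Myl9, the regulatory light chain that Mylk phosphorylates, had 1047 and 258 reads and was 4.64-fold lower (4.05 to 5.34). Cald1, caldesmon, was 2.86-fold lower (2.75 to 2.98), Cnn2 is given above, and the light chain Myl6b had 40 and 5 reads, 9.15-fold lower (3.61 to 29.7). Tpm1, at 6250 and 6430 reads, and Myl6, at 1070 and 1384, were not called.

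Few enzymes that set light chain phosphorylation were called. Of 12 tested, 1 was lower and 0 higher, beside 14.6% and 4.42% over all genes tested, and the median of 0.15 turned to −0.20 under scaling to the luminal markers. Prkg1, the cyclic GMP-dependent kinase that relaxes smooth muscle, was the lower one, with 63 and 21 reads, 3.43-fold (2.07 to 5.92), and it was not called under total counts. Ppp1r12a, the myosin phosphatase targeting subunit, had 1790 and 2007 reads, a log2 ratio of −0.03 (−0.12 to 0.06). Most of these enzymes work in nearly every cell type.

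Genes of the anchoring sites went both ways. Of 29 dense body, plaque and filament genes tested, 9 were lower and 3 higher, beside 14.6% and 4.42% over all genes tested. Their median was −0.57. Hspb7, a small heat shock protein of muscle, had 193 and 14 reads and was 15.8-fold lower (9.17 to 29.4), Nexn, an actin-binding protein, had 177 and 14 reads and was 14.5-fold lower (8.40 to 27.0), and Itga8, an integrin subunit, had 112 and 12 reads and was 10.7-fold lower (5.88 to 21.3). Pgm5, also called aciculin, a protein of muscle adhesion sites, had 300 and 3441 reads and was 10.0-fold higher (8.91 to 11.3).

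Calcium handling and channel genes were lower in 11 of 20 and higher in 2, with a median of −1.21. The shares over all genes tested were 14.6% lower and 4.42% higher. Jph2, which ties the calcium store to the cell membrane, had 288 and 11 reads and was 30.0-fold lower (16.5 to 60.7). Cacna2d1, a calcium channel subunit, had 573 and 49 reads and was 13.4-fold lower (9.98 to 18.3). The potassium channel Kcna5 had 68 and 2 reads and was 38.9-fold lower (10.4 to 328). Trpc6, a cation channel, had 11 and 159 reads and was 12.6-fold higher (6.87 to 25.8).

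Receptors and nitric oxide signalling genes were lower in 4 of 16 and higher in 1, with a median of −0.57, beside 14.6% lower and 4.42% higher over all genes tested. Oxtr, the oxytocin receptor, had 310 and 2 reads and was 177-fold lower (48.7 to 1471), and Tbxa2r, the thromboxane receptor, had 59 and 1. The subunits of the nitric oxide receptor, Gucy1a3 with 1010 and 36 reads and Gucy1b3 with 178 and 28, were 32.1-fold (23.0 to 46.1) and 7.27-fold lower (4.86 to 11.3). Npr1, a natriuretic peptide receptor that also makes cyclic GMP, was the higher one, with 499 and 1676 reads, 2.94-fold (2.66 to 3.25).

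The factors that control the contractile genes did not show a common difference. Srf had 920 and 1032 reads, a log2 ratio of −0.03 (−0.16 to 0.10) whose sign turned under total counts. Myocd, which encodes myocardin, had 31 and 13 reads, 2.73-fold lower (1.39 to 5.68) and not called. The myocardin-related factor genes Mkl1, with 908 and 951 reads, and Mkl2, with 1663 and 2409, were not called. Over 22 factors and cofactors, 7 were lower and 2 higher, beside 14.6% lower and 4.42% higher over all genes tested. Their median was −0.0038, and its sign turned under total counts. Tbx18 was 21.4-fold lower (6.94 to 107) with 56 and 3 reads, Gata6 7.04-fold lower (4.83 to 10.6) and Meis1 3.25-fold lower (2.75 to 3.86), while Hand2 had 164 and 1407 reads and was 7.50-fold higher (6.38 to 8.87).

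SRF targets that many cells share were mostly not called. Of 19, 4 were lower and 1 higher, near the shares of 14.6% and 4.42% over all genes tested, with a median of −0.40. Ctgf and Cyr61, matricellular genes that also answer to YAP and TEAD factors, were 9.41-fold (8.60 to 10.3) and 6.46-fold lower (5.78 to 7.24), Thbs1, thrombospondin 1, 5.61-fold lower (5.43 to 5.79) and Tgfb1i1, an SRF coactivator of smooth muscle, 2.96-fold lower (2.53 to 3.47). Egr1 was 2.19-fold higher (2.07 to 2.32).

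**Figure D5:**
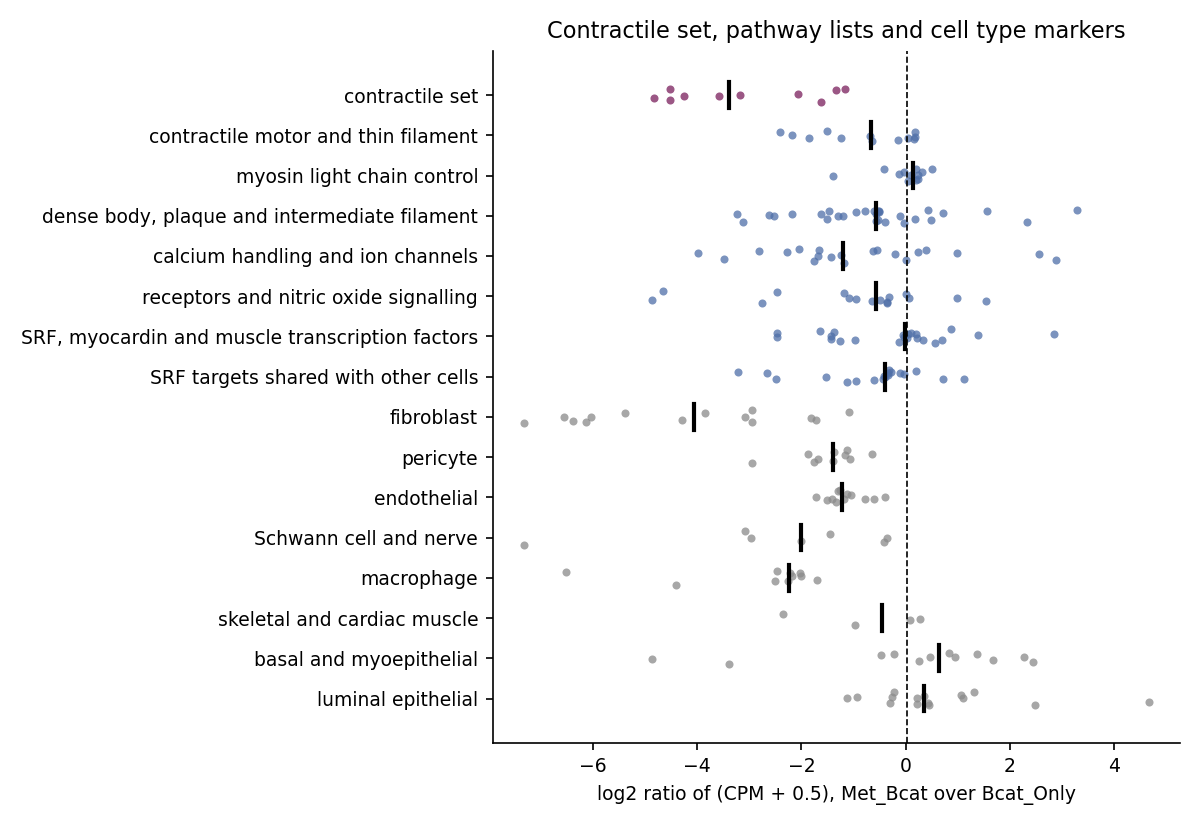
Each point is the log2 ratio of CPM plus 0.5 of a tested gene, Met_Bcat over Bcat_Only, for the contractile set (purple), pathway lists (blue) and cell type marker lists (grey), black bars are medians and the dashed line is the median over all genes tested. The contractile set has a median of −3.38, next to −4.06 for fibroblast markers, −1.39 for pericyte markers and 0.34 for luminal markers.

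Markers of other cells that could share these transcripts differed to unlike degrees. Over all genes tested, 14.6% were called lower and 4.42% higher. All 14 fibroblast markers were called lower, with a median of −4.06 and summed levels of 25134 and 1010 CPM. Dpt, dermatopontin, had 1601 reads and 1 read, and the defining marker Pdgfra had 4543 and 1581. Pericyte markers were lower in 6 of 10 tested, with a median of −1.39 and summed levels of 847 and 363 CPM. All 10 had a ratio below 1. Vtn, with 75 and 2 reads, was 42.9-fold lower (11.5 to 361), and Notch3 was 3.81-fold lower (3.27 to 4.45). Pdgfrb, with 2626 and 1425 reads, was 2.11-fold lower (1.98 to 2.25) and not called. Rgs5, with 2765 and 2011 reads, was 1.57-fold lower (1.48 to 1.67) and not called. The lists overlap, since Kcnj8 and Abcc9, both called lower, are also in the calcium handling and channel list, and Rgs5 in the receptor list. Endothelial markers were lower in 8 of 12, with a median of −1.22 and summed levels of 793 and 407 CPM. The part of fibroblasts and vessels in the contractile gene differences was not tested.

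Macrophage markers were lower in 10 of 10, with a median of −2.23 and summed levels of 3304 and 616 CPM, and Schwann cell and nerve markers in 5 of 7, with a median of −2.02 and summed levels of 413 and 136 CPM. The medians of the epithelial lists were above 0, though many of their genes were not called. The shares over all genes tested were 14.6% lower and 4.42% higher. Basal and myoepithelial markers were higher in 4 of 12 and lower in 2, with a median of 0.65 and summed levels of 1314 and 2498 CPM. Krt5 and Krt14, the basal keratins, were 4.85-fold (4.67 to 5.05) and 5.46-fold higher (5.11 to 5.84). Krt15, another basal keratin, had 2175 and 229 reads and was 10.9-fold lower (9.48 to 12.5), and Oxtr, given above, also belongs to this list. Luminal markers were higher in 5 of 15 and lower in 1, with a median of 0.34 and summed levels of 4934 and 8299 CPM. When libraries were scaled to the luminal markers themselves, 2 of them were higher and 2 lower.

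Markers of striated muscle had few reads. Of 18 skeletal and cardiac muscle markers, 4 passed the minimum. Of these 4, 1 was called lower and 0 higher, beside 14.6% and 4.42% over all genes tested. Of the 18, 9 had 0 reads in Bcat_Only and 9 in Met_Bcat, and Myod1 and Myog were at 0 in both. The summed level was 11.7 CPM in Bcat_Only and 7.02 CPM in Met_Bcat, beside 746 and 123 CPM for the contractile set. The called gene was Ttn, titin, with 60 and 5 reads, 13.7-fold lower (5.57 to 43.8), and the other tested genes were Mb with 58 and 71 reads, Tnni2 with 40 and 18 and Mylpf with 26 and 38. Acta1, skeletal muscle actin, had 6 reads and 1 read, and Actc1, cardiac actin, had 2 and 1. The part of striated muscle in the reads of Des was not tested.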

How the data were processed

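RNA of 2 prostate tumours was sequenced, 1 library per genotype. The authors deposited whole-number read counts per gene with mm9 coordinates and exon length, not normalised. Per the submitters' processing notes TopHat2 version 2, HTSeq and edgeR were used on mm9. For the strand setting and annotation release, nothing is given in the sources used here. Columns were matched to samples by the sample number in their headings.

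TMM factors (edgeR 4.0.16, R 4.3.3) were 0.955 for Bcat_Only and 1.05 for Met_Bcat. Ratios, 95% Clopper-Pearson intervals and calls were computed in scipy 1.17.1 over all 27376 genes, of which 14354 had a mean of at least 1 CPM. The procedure was also run on simulated counts that held counting error alone, the error its intervals assume. That run cannot speak to spread between animals. RPKM used the deposited exon length. List medians used a pseudocount of 0.5 CPM, which understates differences of low genes. The limit that a count of 0 allows, 3 reads, amounts to 0.163 CPM (Bcat_Only) or 0.142 CPM (Met_Bcat). Intervals cover counting error only, since each genotype has 1 library. Reads carry no molecular identifiers, so repeated reads of a molecule cannot be told apart from reads of separate molecules. The intervals take no account of this.

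In the table's annotation Tagln overlaps the end of Pcsk7 (801 and 910 reads), Smtn overlaps Gm11946 (4 and 2) and Gm11947 (0 and 0), and Des overlaps Gm15179 (0 and 0), each on the other strand.

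The genes, lists and rules were chosen with earlier results of these data known. Named were the 10 genes, SRF and its partners, relatives, and up to 4 genes of a list, ranked by how far the interval's near end lay from equality. Other names are given as values, and Npr1, Egr1, Pdgfra, Pdgfrb, Rgs5, Tpm1, Myl6, Ppp1r12a, Krt8, Myod1 and Myog were added as such after their values were seen. Alternatives were other scalings, expression minimums, size rules and pseudocounts. The CArG-like search and the shared 51-base windows (GENCODE M21 transcripts) were added after seeing the data. Promoters of Actg2, Myh11 and Tagln and protein sequences were not analysed here.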

Additional observations from a re-analysis of the deposited data

How the results depend on the processing

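All 10 genes kept a ratio below 1 under every scaling and minimum run. Total counts raise each log2 ratio by 0.13, DESeq2 size factors move it by −0.00031 and luminal scaling by −0.34, with 9, 10 and 10 genes called. A near end of 4-fold left 6 genes called. A minimum of 10 CPM left 8 genes, all called, with a median of −2.62. A pseudocount of 2 CPM gave a median of −2.52, and leaving out each gene in turn gave −3.58 to −3.18. Over all genes tested, 1226 were lower and 356 higher with a minimum of 10 CPM, 1086 and 251 at 4-fold, and 422 higher under luminal scaling. Over the pathway lists, 27 were lower with a minimum of 10 CPM, and 19 lower and 5 higher at 4-fold. Fewer genes tested, a stricter rule or the shift of every ratio moves these counts by construction. Without the 1% of genes with most reads, the set's share was 0.101% in Bcat_Only and 0.0174% in Met_Bcat, since the denominator is smaller. Under luminal scaling the light chain list's median turned from 0.15 to −0.20. Under total counts that of the control factors turned from −0.0038 to 0.13. Both turns follow from the shift of every ratio given above, since these medians lay close to equality. The light chain list's mean was −0.011, and the control factors' median was 0.037 with a minimum of 10 CPM. The cause of these last turns was not tested. No paired analysis was possible because each genotype has 1 library. With 5 and 6 reads in Met_Bcat, Cnn1 and Lmod1 are the least precise ratios.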
